A study of Homo sapiens with 4 samples.

Results

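Matrix metalloproteases (MMPs), the ADAMTS proteases and their tissue inhibitors (TIMPs) were examined in A549 cells, a human lung adenocarcinoma line, with and without overexpression of the deubiquitinase USP12. In bulk RNA, fewer cells of a kind and less RNA per cell cannot be told apart. The genes were taken by name alone, as symbols made of MMP, ADAMTS or TIMP and a number, which gave 47 genes (24 MMP, 19 ADAMTS and 4 TIMP genes) of the 50868 in the count files. RNA-seq had been done on 4 libraries, 2 labelled control (replicates 1 and 2) and 2 labelled as overexpressing USP12 (replicates 1 and 2). All 4 are labelled A549, and the paper's methods describe USP12 cloned into lentiviral vectors. The paper abbreviates the controls as EV. Neither the time after transduction nor whether the 2 libraries of a group came from separate cultures is stated, so the spread between them may be technical.

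MMPs are zinc proteases that are made as inactive precursors and, once activated, cut collagens, laminins, proteoglycans and cell surface proteins. Collagenases, gelatinases, stromelysins and matrilysins are secreted, whereas membrane-type MMPs stay at the cell surface, where some of them activate the precursor of MMP2. ADAMTS proteases are secreted relatives with thrombospondin repeats, many of which cut proteoglycans or process fibrillar proteins. TIMPs bind active MMPs, and TIMP3 also inhibits several ADAMTS and ADAM proteases. In carcinomas these genes are often studied for matrix remodelling, invasion and angiogenesis.

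Total counts were between 14280081 and 16305356 per library, so that 3 counts corresponded to between 0.166 and 0.227 CPM, which covers counting error only. USP12 itself was at 15.2 and 34.4 CPM (the count relative to its library's total after TMM scaling) in controls and at 1740 and 2240 CPM under USP12. The control libraries differed from each other more than the USP12 libraries did. Over the tested members, the log2 ratio of 1 control to the other had an SD of 1.41, against 0.63 for the USP12 pair. Over all tested genes these SDs were 1.32 and 0.62. Control replicate 1 also stands alone in the date-like prefix of its column heading, so that any batch effect and the library itself cannot be told apart. Each fold change is therefore given against both control libraries and, where it matters, against 1 of them alone. The epithelial keratin gene KRT8 was at 6070 and 3340 CPM in controls and 2750 and 2520 CPM under USP12. Of 10 epithelial and A549 markers, 9 were tested, and the alveolar marker SLC34A2 was not, with 23 counts in control replicate 1 and 0 in the others.

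Of the 47 genes, 17 had enough counts to be tested, 8 MMP, 6 ADAMTS and 3 TIMP genes. The other 30 were not tested. Among them, 8 had no count in any library (MMP3, MMP8, MMP20, MMP23A, MMP27, ADAMTS5, ADAMTS17 and ADAMTS20), and 20, these 8 included, were at or under 3 counts in every library. MMP23A is annotated as a pseudogene. MMP10 had 1 and 10 counts in controls and 6 and 15 under USP12. ADAMTS6 had 15 and 4 counts, then 6 and 7. The remaining 28 untested genes did not exceed 9 counts in any library. They include the gelatinase MMP9 (6 and 2 counts in controls, 1 and 1 under USP12) and the matrix-bound inhibitor TIMP3 (9 counts in control replicate 1, and 0 in the other 3 libraries). No collagenase, stromelysin or procollagen-processing ADAMTS gene (ADAMTS2, ADAMTS3 and ADAMTS14) passed the filter on low counts.

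The untested genes include most of the MMP cluster of chromosome 11, which holds 9 genes between 102520508 and 102955732 (GRCh38). MMP7, at one end of it (102520508 to 102530750, minus strand), had 3751 and 1232 counts in controls and 1387 and 1313 under USP12. The 7 genes other than MMP7 and MMP10 had at most 2 counts in any library. The sequence before the start of MMP7 and of MMP10 is given here, so that the most abundant gene of the cluster can be compared with the only other one above 2 counts. Capitals mark matches, on either strand, to TGANTCA (the AP-1 element), AGGAAG (the core of ETS sites) and TATAAA (the TATA box) in the 250 bases before the start, from the RefSeq promoter table on GRCh38.p14, and the last base shown is the one before the start.
MMP7 (chr11:102530748-102530997, minus strand): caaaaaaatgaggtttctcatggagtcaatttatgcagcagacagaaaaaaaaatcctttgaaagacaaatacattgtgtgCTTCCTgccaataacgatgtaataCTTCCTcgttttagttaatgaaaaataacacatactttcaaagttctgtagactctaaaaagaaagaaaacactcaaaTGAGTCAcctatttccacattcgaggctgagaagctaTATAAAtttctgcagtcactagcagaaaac
MMP10 (chr11:102780629-102780878, minus strand): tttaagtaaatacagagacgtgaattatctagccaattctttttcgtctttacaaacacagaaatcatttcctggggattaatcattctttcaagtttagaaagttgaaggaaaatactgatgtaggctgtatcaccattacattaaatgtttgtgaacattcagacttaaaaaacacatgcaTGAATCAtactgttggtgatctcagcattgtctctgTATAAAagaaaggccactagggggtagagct
In both, an AP-1 match lies at bases -67 to -61, counted from the start. A TATA box match begins at base -30 in MMP7 and at base -31 in MMP10. An AP-1 match was found in 6.57% of all 35116 promoter entries of that table, a TATA box match in 10.7%, and both together in 1.07%. Both were also present before MMP20, a gene of the same cluster with no count in any library. There the AP-1 match lies at bases -112 to -106 and the TATA box match begins at base -72. MMP8, also without a count, had a TATA box match from base -110. The matches therefore did not separate the genes with counts from those without. The 2 ETS matches of MMP7 begin at bases -169 and -145 and are on the opposite strand, and ETS matches were found in 28.7% of all entries.

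**Figure D1:**
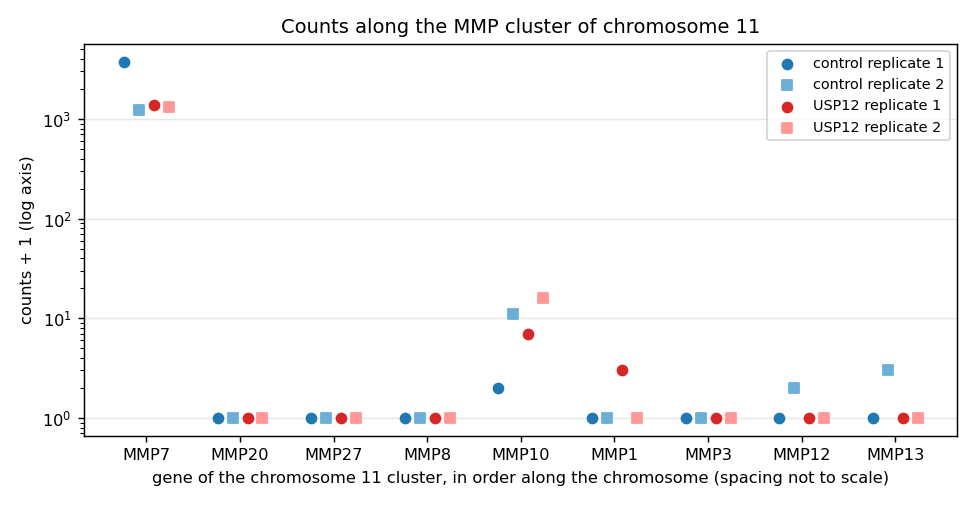
Counts (plus 1, log axis) of the 9 MMP genes of the chromosome 11 cluster in order along the chromosome, with 1 point per library (blue, control; red, USP12; circles, replicate 1; squares, replicate 2). MMP7 sits between 1232 and 3751 counts in all 4 libraries, MMP10 at 15 or fewer, and the other 7 genes at 2 or fewer.

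Compared per kilobase of exon, which allows levels of different genes to be set side by side, TIMP1 was the highest of the 17 tested genes in every library. Its level was 254 and 85.9 CPM per kilobase in controls and 125 and 101 under USP12. MMP7, with 122 and 29.4, then 43.0 and 39.2 CPM per kilobase, was next in 3 libraries and just below TIMP2 in USP12 replicate 2. TIMP2 (56.8 and 17.3, then 28.1 and 39.5), TIMP4 (30.6 and 21.3, then 26.8 and 25.1) and MMP24 (46.7 and 15.5, then 16.6 and 18.6 CPM per kilobase) had overlapping ranges. ADAMTS10 was the highest ADAMTS gene, with 9.66 and 5.79 CPM per kilobase in controls and 23.6 and 21.2 under USP12. By level it ranked 8 and 6 of the 17 in controls and 5 in both USP12 libraries.

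Summed over each family, MMP transcripts amounted to 205 and 56.8 CPM per kilobase in controls and 83.2 and 76.9 under USP12, so the groups overlapped. MMP7 made up between 51.0% and 59.7% of this sum, and MMP24 between 20.0% and 27.2%. TIMP transcripts summed to 341 and 125, then 180 and 166 CPM per kilobase, and also overlapped. The ratio of summed TIMP to summed MMP level was 1.67 and 2.19 in controls and 2.16 in both USP12 libraries. ADAMTS transcripts summed to 16.6 and 7.84 CPM per kilobase in controls and to 29.5 and 27.5 under USP12, without overlap. ADAMTS10 alone was 58.2% and 73.9% of the ADAMTS sum in controls and 80.3% and 77.3% under USP12.

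**Figure D2:**
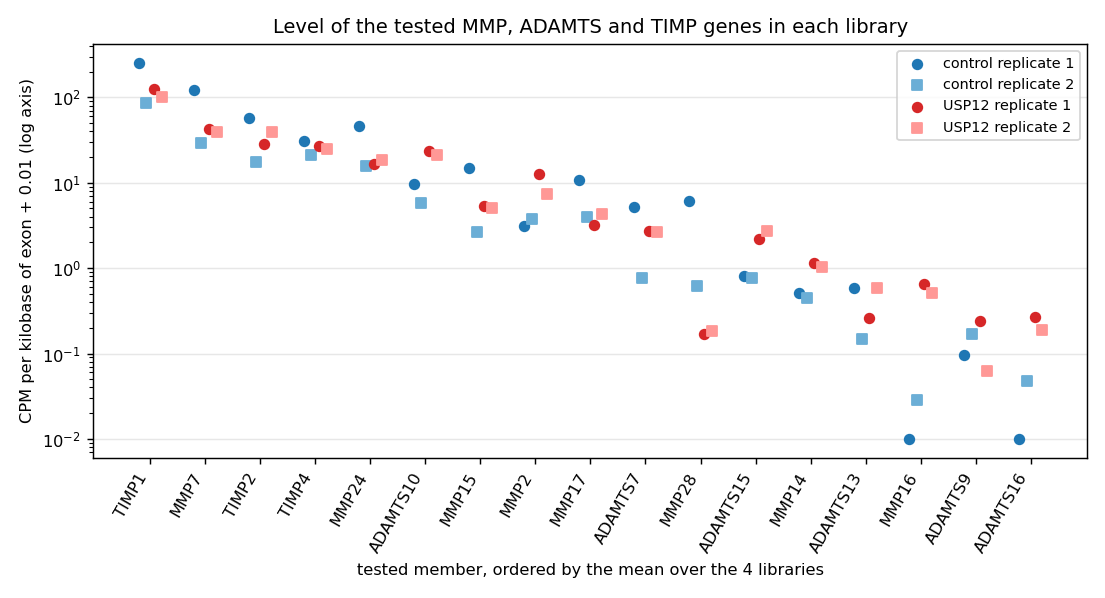
Level of each tested member in CPM per kilobase of exon (plus 0.01, log axis), 1 point per library, with genes ordered by the mean over the 4 libraries. TIMP1 is highest in every library, control replicate 1 lies above the other libraries for most of the abundant genes, and MMP16 and ADAMTS16 are near the bottom of the axis in controls only.

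The design asks which genes differ when USP12 is overexpressed. None of the 17 tested members had an adjusted p under 0.05 (quasi-likelihood test of edgeR, with 15222 genes in the Benjamini-Hochberg adjustment), and 0% of all tested genes did. USP12 itself, 80.1-fold higher, had an adjusted p of 0.0975 in that test, so the lack of such members says little about them. At an unadjusted p under 0.05 there were 6 members, and 7.59% of all tested genes. DESeq2 and the edgeR exact test each gave 2 members with an adjusted p under 0.05, MMP16 and MMP28, where they called 2.75% and 2.82% of all genes. A criterion of fold change and p was also applied, which extends to both directions the kind of rule used in the paper for lower genes. By this criterion (a log2 fold change of at least 1 in size and an unadjusted p no higher than 0.05), 5 members were higher in USP12 cells, MMP16, ADAMTS16, ADAMTS15, ADAMTS10 and MMP2, and 1 was lower, MMP28. Over all tested genes 2.92% were higher and 4.41% lower by that criterion, against 29.4% and 5.88% of the 17 members. MMP16 and ADAMTS16 passed the filter on low counts only through their USP12 libraries and MMP28 only through the controls, so these shares are a description and the members were not all equally able to meet the criterion. The 2 USP12 libraries lay above both control libraries in 6 members, which adds the MMP2 activator MMP14 to those 5, and below them in MMP28, against 19.5% and 17% of all tested genes. The median log2 fold change was 0.00 over the 17 members and -0.06 over all tested genes.

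MMP2 (gelatinase A, chromosome 16, 55389700 to 55506691), which cuts denatured and basement membrane collagen, had 14.8 and 17.8 CPM in controls and 58.8 and 34.4 CPM under USP12. Its control libraries were close to each other, and both USP12 libraries were above them. The log2 fold change was 1.52 (standard error 0.46, quasi-likelihood adjusted p = 0.436), 1.67 against control replicate 1 alone and 1.39 against control replicate 2 alone. The USP12 libraries of MMP2 were further apart, and its log2 fold change was 1.08 without USP12 replicate 1 and 1.85 without USP12 replicate 2. The fragments of a same-strand gene that overlaps MMP2 were 3 or fewer per library.

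Among the membrane-type MMPs, MMP14, which activates pro-MMP2 at the cell surface, had 2.35 and 1.99 CPM in controls and 5.33 and 4.71 CPM under USP12. The groups did not overlap, with a log2 fold change of 1.21 (standard error 0.57), but its unadjusted p was 0.0764 and it did not meet the criterion. MMP16 (chromosome 8, 88032011 to 88328025), another membrane-type MMP, had 0 and 4 counts in controls and 107 and 87 counts under USP12. In CPM this was 0 and 0.222 against 7.70 and 6.03, so MMP16 was near the floor of 3 counts in both control libraries and well above it in both USP12 libraries. The ratio of the summed, scaled counts was 53.5 (95% exact interval 20.6 to 198, counting error only). The fitted log2 fold change of MMP16 was 5.72 (standard error 1.07, quasi-likelihood adjusted p = 0.214), and 4.90 against control replicate 2 alone. Against control replicate 1 alone, set at its floor of 3 counts, MMP16 was at least 30.2-fold higher. An unnamed gene on the opposite strand of MMP16 had 2 or fewer counts.

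The other 3 tested membrane-type genes, MMP15, MMP17 and MMP24, went the other way in their point estimates, and none met the criterion. MMP24, the most abundant of the group, had 204 and 67.7 CPM in controls and 72.8 and 81.2 CPM under USP12. Its log2 fold change of -0.82 (standard error 0.56) became -1.40 against control replicate 1 alone and 0.19 against control replicate 2 alone. MMP24-AS1, on the opposite strand with overlapping exons, had 1990 and 604 counts, then 915 and 801, and the level of MMP24 is uncertain because the sources do not say if counting used strand. MMP15 had 62.3 and 11.2 CPM, then 22.5 and 21.5 CPM, with the USP12 libraries between the control libraries (log2 fold change -0.74, standard error 0.78). MMP17, which is anchored by glycosylphosphatidylinositol, had 43.2 and 15.6 CPM, then 12.7 and 17.0 CPM (log2 fold change -0.98, standard error 0.60). For MMP17 it was -1.53 against control replicate 1 alone and -0.07 against control replicate 2 alone, so the difference rests on control replicate 1.

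MMP7 (matrilysin), a small secreted protease of epithelial cells, had 284 and 68.3 CPM in controls and 99.8 and 90.9 CPM under USP12. Both USP12 libraries lay between the controls. For MMP7 the log2 fold change was -0.88 (standard error 0.66, quasi-likelihood adjusted p = 0.898), -1.56 against control replicate 1 alone and 0.48 against control replicate 2 alone. MMP28 (epilysin, chromosome 17, 35756249 to 35795707) was the one member lower by the criterion, with 19.6 and 1.94 CPM in controls and 0.504 and 0.554 CPM under USP12. In the same order MMP28 had 259, 35, 7 and 8 counts, all above the floor of 3. The log2 fold change of MMP28 was -4.32 (standard error 1.19, quasi-likelihood adjusted p = 0.368), and it was -5.18 against control replicate 1 alone and -1.86 against control replicate 2 alone, so its size rests largely on control replicate 1.

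**Figure D3:**
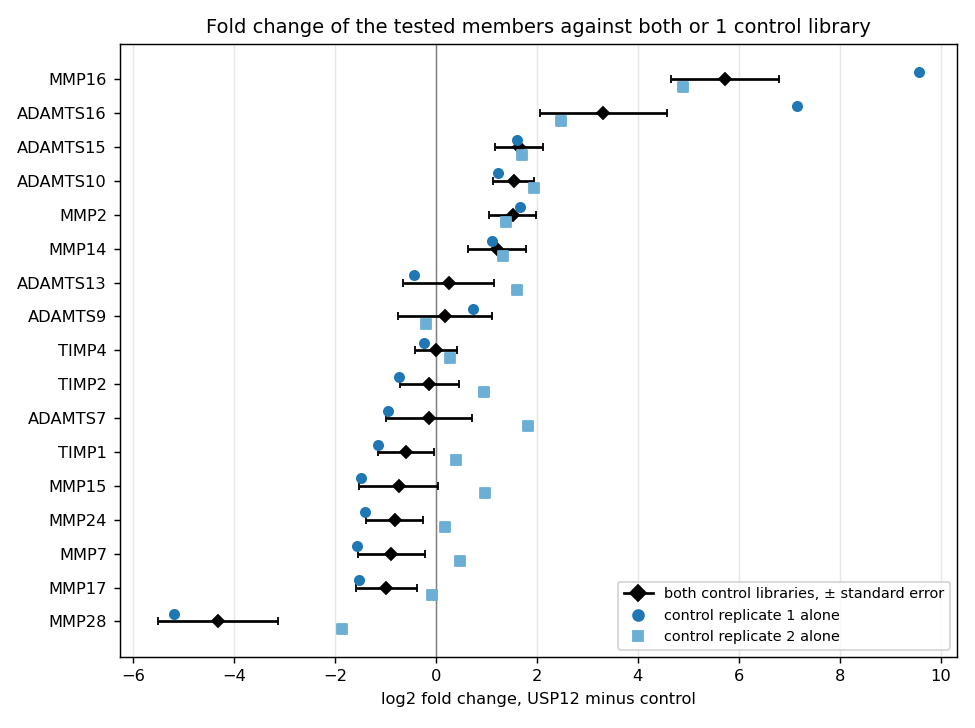
Log2 fold change (USP12 minus control) of the 17 tested members: black diamonds with standard errors use both control libraries, dark blue circles control replicate 1 alone and light blue squares control replicate 2 alone. For 9 members the 2 single-control values lie on opposite sides of 0, while MMP16, ADAMTS16, ADAMTS15, ADAMTS10, MMP2 and MMP14 stay above 0 and MMP28 and MMP17 below; the circles of MMP16 and ADAMTS16 depend on the prior count.

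ADAMTS10 (chromosome 19, 8580240 to 8610735, minus strand), which binds fibrillin microfibrils, had 55.1 and 33.0 CPM in controls and 135 and 121 CPM under USP12. The USP12 libraries were close to each other and above both controls. The log2 fold change of ADAMTS10 was 1.54 (standard error 0.41, quasi-likelihood adjusted p = 0.353), 1.23 against control replicate 1 alone and 1.95 against control replicate 2 alone. ADAMTS15 (chromosome 11, 130448645 to 130476645), which cuts the proteoglycans aggrecan and versican, had 4.84 and 4.49 CPM, then 13 and 16.3 CPM. Its control libraries were nearly equal, and ADAMTS15 was 1.65 higher under USP12 on the log2 scale (standard error 0.48, quasi-likelihood adjusted p = 0.403), 1.61 against control replicate 1 alone and 1.71 against control replicate 2 alone. ADAMTS16 had 0 and 4 counts in controls and 21 and 15 counts under USP12. The ratio of its summed, scaled counts was 9.93 (95% exact interval 3.56 to 38.4, counting error only), with a fitted log2 fold change of 3.32 (standard error 1.25, quasi-likelihood adjusted p = 0.581), and 2.48 against control replicate 2 alone. Against control replicate 1 alone, set at its floor of 3 counts, ADAMTS16 was at least 5.62-fold higher.

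Of the ADAMTS genes that met the criterion, ADAMTS10 had an entry in the promoter table. It is shown because this gene gave most of the ADAMTS transcripts, with the same capitals as above, for the start that lies closest to the annotated gene end.
ADAMTS10 (chr19:8610716-8610965, minus strand): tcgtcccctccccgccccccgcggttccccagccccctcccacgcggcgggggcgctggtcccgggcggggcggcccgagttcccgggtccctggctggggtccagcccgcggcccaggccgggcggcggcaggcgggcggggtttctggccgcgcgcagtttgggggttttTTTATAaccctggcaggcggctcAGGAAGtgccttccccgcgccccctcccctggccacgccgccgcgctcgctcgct
A TATA box match on the opposite strand begins at base -78 and an ETS match at base -55 of ADAMTS10. No AP-1 match to these letters was in its 250 bases. The other entry of ADAMTS10 (chr19:8592217-8592466) had no AP-1, ETS or TATA box match. Over the 27 members with an entry (28 entries), 14.3% of entries had an AP-1 match, 21.4% an ETS match and 25.0% a TATA box match. Over the 10 entries of tested members these shares were 10%, 50% and 20%. In the whole promoter table they were 6.57%, 28.7% and 10.7%. With so few entries, these shares are a description. MMP2, MMP16, MMP28, ADAMTS15 and ADAMTS16 had no entry used here.

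The groups overlapped in the other 3 tested ADAMTS genes. ADAMTS7, which cuts cartilage oligomeric matrix protein, had 40.0 and 5.82 CPM in controls and 21.1 and 20.4 CPM under USP12. Its log2 fold change was -0.14 (standard error 0.85), and it was -0.94 against control replicate 1 alone and 1.83 against control replicate 2 alone. ADAMTS7 also has near-identical pseudogene copies, so its counts are uncertain. ADAMTS13, the protease of von Willebrand factor, had 3.25 and 0.776 CPM, then 1.44 and 3.32 CPM. ADAMTS9, a versican-cutting protease, had 0.908 and 1.72 CPM, then 2.45 and 0.554 CPM. In both genes the libraries of a group were far apart, and the groups overlapped.

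None of the 3 tested inhibitors met the criterion. TIMP1 had 367 and 124 CPM in controls and 181 and 147 CPM under USP12 (log2 fold change -0.59, standard error 0.55). TIMP2, which inhibits MMPs and also links pro-MMP2 to MMP14, had 352 and 108 CPM, then 174 and 245 CPM (log2 fold change -0.13, standard error 0.59). In TIMP1 and TIMP2 both USP12 libraries lay between the control libraries. TIMP4 had 36.5 and 25.4 CPM, then 32.0 and 29.9 CPM, and its log2 fold change was 0.00 (standard error 0.42). SYN2, on the opposite strand of TIMP4 with overlapping exons, had at most 10 counts, and CEP295NL, on the strand of TIMP2, at most 6.

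Control replicate 1 was above control replicate 2 for most members, with a median log2 difference of 1.46 over the 17 tested members and -0.01 over all tested genes. This was not particular to the members. The same median was 0.69 in the list of ADAM and ADAMTS-like genes read below, 0.82 in the regulators and 1.09 in the substrates. In the lists of cell type markers it ran from 0.82 to 2.51. Between the USP12 libraries the median difference was 0.10. Against control replicate 1 alone the members' median log2 fold change was -0.44, and against control replicate 2 alone it was 0.98. For 9 of the 17 members the sign of the fold change depended on which control library was used, MMP7, MMP15, MMP24, ADAMTS7, ADAMTS9, ADAMTS13 and the 3 TIMP genes.

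Relatives and regulators of these proteases were read from 3 lists. Of 23 ADAM and ADAMTS-like genes 17 were tested (median log2 fold change -0.05). By the criterion 2 were higher and 1 lower, against 2.92% and 4.41% of all tested genes. ADAM19 had 8.85 and 2.44 CPM in controls and 39.8 and 51.0 CPM under USP12 (log2 fold change 3.01, standard error 0.71), which was 2.37 against control replicate 1 alone and 4.21 against control replicate 2 alone. ADAM12, which is found in mesenchymal cells and tumours, had 2.12 and 4.32 CPM, then 13.4 and 14 CPM (log2 fold change 2.08, standard error 0.57), which was 2.70 and 1.66 against the same single controls. ADAM28 had 17.6 and 19.5 CPM, then 3.17 and 3.74 CPM (log2 fold change -2.42, standard error 0.48). The main sheddases ADAM10 (74.6 and 111 CPM, then 63.6 and 79.4 CPM) and ADAM17 (36.8 and 62.3, then 47.9 and 51.6 CPM) overlapped between the groups.

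Of 25 regulators of metalloprotease activity 20 were tested (median log2 fold change -0.11). By the criterion 2 were higher and 2 lower, against 2.92% and 4.41% of all tested genes. The testicans SPOCK1 and SPOCK3 are proteoglycans, of which SPOCK3 is known to inhibit membrane-type MMPs. SPOCK1 had 2.04 and 0.388 CPM in controls and 25.6 and 22.9 CPM under USP12 (log2 fold change 4.34, standard error 0.84), which was 3.57 against control replicate 1 alone and 5.93 against control replicate 2 alone. SPOCK3 had 0.303 and 0.332 CPM, then 7.77 and 5.61 CPM (log2 fold change 4.36, standard error 0.68). In controls SPOCK1 had 27 and 7 counts and SPOCK3 had 4 and 6. Neither would have passed the filter on low counts by its control libraries alone, so the count of higher regulators is a description. LCN2, lipocalin 2, which binds and stabilises MMP9, was at 1470 and 225 CPM, then 12.2 and 9 CPM (log2 fold change -6.32, standard error 1.01, and -4.40 against control replicate 2 alone), beside an MMP9 that was at 6 counts or fewer. PLAUR, the urokinase receptor, had 171 and 52.9 CPM, then 29.2 and 22.5 CPM (log2 fold change -2.11, standard error 0.62, and -1.03 against control replicate 2 alone). The membrane-anchored MMP inhibitor RECK had 7.95 and 5.87 CPM, then 7.13 and 6.93 CPM. FURIN, which activates membrane-type MMP precursors, had 327 and 172 CPM, then 166 and 172 CPM. BSG, which induces MMPs, had 1060 and 645 CPM, then 697 and 565 CPM.

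Of 26 substrates 20 were tested (median log2 fold change -0.18). By the criterion 5 were higher and 3 lower, against 2.92% and 4.41% of all tested genes. VCAN (versican), a substrate of the proteoglycan-cutting ADAMTS group, had 2.27 and 0.942 CPM in controls and 9 and 8.17 CPM under USP12 (log2 fold change 2.42, standard error 0.65), which was 1.93 against control replicate 1 alone and 3.18 against control replicate 2 alone. COL5A1, a fibrillar collagen gene, had 36.5 and 12.4 CPM, then 91.2 and 111 CPM, with a log2 fold change of 2.06 (standard error 0.59) that was 1.48 against control replicate 1 alone and 3.03 against control replicate 2 alone. The basement membrane collagen gene COL4A1 had 42 and 24.8 CPM, then 84.3 and 117 CPM (log2 fold change 1.59, standard error 0.44). LAMB3, a chain of an epithelial laminin, had 246 and 61.0 CPM, then 31.8 and 36.6 CPM (log2 fold change -2.17, standard error 0.68), and -0.83 against control replicate 2 alone. LAMA3, another chain of that laminin, had a log2 fold change of 1.48 (standard error 0.45). NCAN (neurocan), a proteoglycan of nervous tissue, was near the floor with 11 and 19 counts in controls and 0 and 1 under USP12. It passed the filter on low counts only through the controls. No gene of the 3 lists had an adjusted p under 0.05 by edgeR's quasi-likelihood test.

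**Figure D4:**
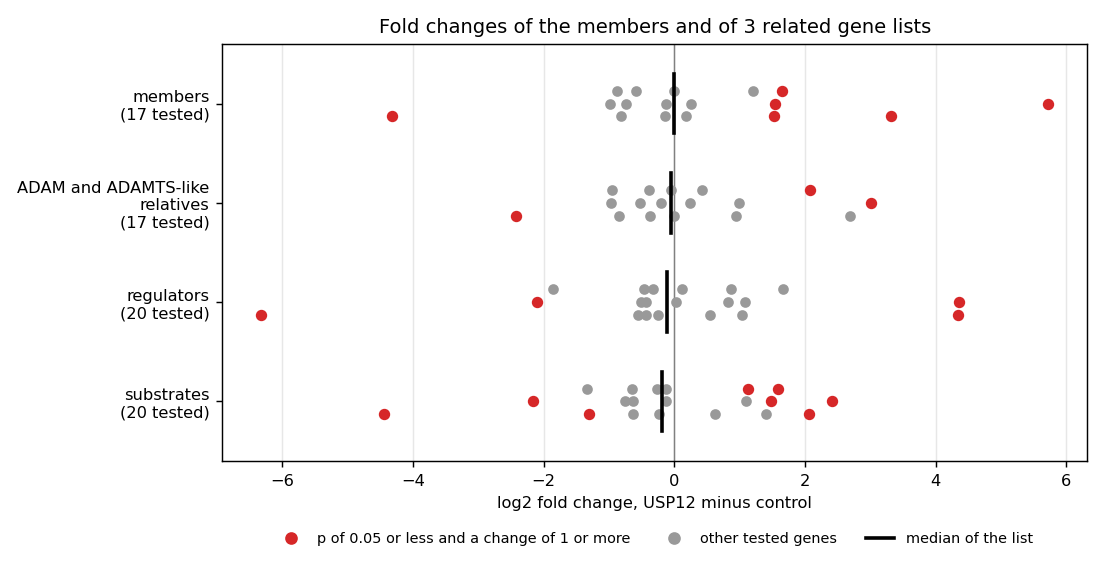
Log2 fold change (USP12 minus control) of each tested gene among the members and in the 3 related lists, with red points for genes that met the criterion and black bars for the median of each list. The medians lie close to 0 in all 4 rows, from -0.18 to 0.00, with single genes far out on both sides.

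Markers of other cell types were read beside the members. The summed level of 8 fibroblast markers was 34.6 and 4.21 CPM in controls and 22.7 and 17.5 CPM under USP12. COL1A1 (13 and 2.60, then 18.9 and 14.6 CPM) and THY1 (16.6 and 0.997, then 1.58 and 0.416 CPM) carried most of it, while DCN was at 0 and COL1A2 at 2 counts or fewer. The leukocyte list summed to 123 and 55.4, then 78.5 and 61.9 CPM, of which CD68, a lysosomal protein gene, gave 79 and 46.8, then 63.4 and 47.5 CPM, and CD14 gave 32.1 and 4.71, then 13.3 and 12.1 CPM. These 2 genes overlapped between the groups. Of the 4 tested genes of this list, 2 were lower under USP12 without overlap and 1 of them by the criterion, against 17% and 4.41% of all tested genes. The 1 that met the criterion had 3 or fewer counts under USP12 and passed the filter on low counts only through the controls. PTPRC and CD3E, which define leukocytes and T cells, and CD163 had at most 1 count in any library. Of the 9 tested epithelial markers 5 were lower under USP12 without overlap, and 1 of them, KRT19, by the criterion. Over all tested genes 17% were lower without overlap and 4.41% by the criterion. KRT19 had 437 and 114, then 68.7 and 55.9 CPM (log2 fold change -2.14, and -0.87 against control replicate 2 alone). All 10 epithelial markers summed to 16400 and 13300 CPM in controls and 11800 and 11300 CPM under USP12. The 6 endothelial markers summed to 15.4 and 8.59 CPM in controls and to 0.504 and 1.45 CPM under USP12. Of these, CDH5 and PECAM1 were the 2 tested, both lower by the criterion, against 4.41% of all tested genes, and the other 4 were at or under 3 counts. Under USP12, CDH5 had 2 and 5 counts and PECAM1 had 4 and 14. Neither would have passed the filter on low counts by its USP12 libraries alone, so this count is a description. The epithelial and endothelial sums were lower in both USP12 libraries, and the part of these markers in the differences of the members was not tested.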

How the data were processed

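The deposited values are raw counts of uniquely mapped fragments per gene. The authors trimmed adaptors and removed ribosomal RNA reads with Seqtk, mapped to GRCh38 with HISAT2 2.0.4 and counted with StringTie 1.3.0. Which annotation release was used, and whether strand was, is not given in the sources used here.

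Counts were tested in R 4.3.3 with edgeR 4.0.16 (filterByExpr, TMM, quasi-likelihood test, Benjamini-Hochberg adjustment over 15222 genes) and no replicate block. Each standard error was approximated as the size of the log2 fold change over the square root of F. DESeq2 1.42.0 was an alternative. Prior degrees of freedom were 4.15. The smallest p that an exact permutation test can give for 2 libraries against 2 is 0.333. Positions and exon lengths came from GENCODE release 44, promoters from RefSeq. The tests were tried on simulated counts with the same fixed spread in both groups. That trial does not cover the unequal spread of these libraries.

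The genes, lists and named-gene rule (every tested member, untested members with 10 counts or more, and list genes meeting the criterion, up to 6 a list, with RECK, FURIN, BSG, ADAM10 and ADAM17 in any case) were chosen with earlier results of these data known. MMP9, TIMP3 and the named cell type markers were picked after their values were seen. A listed marker gene is not reported here.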

Additional observations from a re-analysis of the deposited data

How the results depend on the processing

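No adjusted p was under 0.05 for any member in the fit reported. Without a filter on low counts, with the DESeq2 Wald test, with the exact test and with the replicate block there were 2 members each (MMP16 and MMP28), and leaving out a single library gave from 0 to 12, with 4 against control replicate 2 alone and 12 against control replicate 1 alone, where the lone control is assumed to vary like the USP12 pair. Those 2 fits called 10.8% and 33% of all genes, the fit without the filter 2.13% and the block 2.65%. Over all alternatives the adjusted p ranged from 2.49e-06 to 0.212 for MMP16 and from 3.51e-05 to 0.631 for MMP28. By the criterion, leaving out a library gave from 1 to 7 higher and from 1 to 6 lower members, and a median log2 fold change from -0.44 to 0.98. With at least 10 counts in every library 0 members were lower, since MMP28 was not tested there. In the related lists, 9 genes were higher and 6 lower. This became 14 higher without the filter, 16 with the block, and from 4 to 19 higher and from 3 to 12 lower with a library left out.

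Of 166 alternative values of single members, 124 kept direction and side of the threshold, 23 passed it in addition and 19 reversed. The replicate block reversed ADAMTS7 (0.43), ADAMTS9 (-0.06), TIMP2 (0.09) and TIMP4 (0.02). TIMP4 was also 0.02 without the filter and 0 to 2 decimals in the exact test. With a library left out, log2 fold changes ran from -0.46 to 1.61 for ADAMTS13, from -0.94 to 1.83 for ADAMTS7, from -1.24 to 0.88 for ADAMTS9, from -1.56 to 0.48 for MMP7, from -1.49 to 0.98 for MMP15, from -1.40 to 0.19 for MMP24, from -1.15 to 0.40 for TIMP1, from -0.74 to 0.96 for TIMP2 and from -0.23 to 0.28 for TIMP4. The cause was not tested. Replicate numbers 1 and 2 occur in both groups, but the labels name no shared culture and same-numbered libraries deviated together only weakly (correlation across genes 0.152), so the block is an alternative. Its prior degrees of freedom were infinite, so it uses no spread of the single gene. At these depths 30 of the 47 genes had too few counts to be tested.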
